A study of Mus musculus with 6 samples.

Results

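Expression of 10 genes of the corticosteroid response and the epithelial sodium channel was described in whole mouse kidney, in Pck1-CKO mice against WT mice. The genes were the steroid receptors Nr3c1 and Nr3c2, the enzyme Hsd11b2, the hormone targets Sgk1, Tsc22d3 and Fkbp5, the channel brake Nedd4l, and the channel subunits Scnn1a, Scnn1b and Scnn1g. They were found on the array through the RefSeq accessions of their probes. All 10 were among the 23785 genes named on the array and among the 17135 genes tested, and 17 of their 18 probes were tested. Total RNA had been hybridised to 6 one-colour Agilent arrays, 3 of each genotype. Pck1-CKO mice were Pck1 flox/flox/γGT-Cre tg/+ on a C57BL/6J background, so Cre recombinase was directed to the proximal tubule and not to the distal nephron, where the sodium channel works. The mice called WT were littermates matched for age and sex. The breeding scheme yields controls with floxed Pck1 alleles, namely Pck1 flox/+ with or without γGT-Cre tg/+, and also Pck1 flox/flox without it, and the labels do not say which were used. All mice were killed at 32 weeks. Pck1 encodes cytosolic phosphoenolpyruvate carboxykinase, an enzyme of gluconeogenesis.

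Corticosteroids act through 2 nuclear receptors. The glucocorticoid receptor is present in nearly all cells, whereas the mineralocorticoid receptor governs sodium reabsorption in the distal nephron and collecting duct. There, 11β-hydroxysteroid dehydrogenase type 2 inactivates glucocorticoids, which leaves the mineralocorticoid receptor to aldosterone. Aldosterone induces the kinase SGK1, which phosphorylates the ubiquitin ligase NEDD4-2, and phosphorylated NEDD4-2 removes fewer sodium channels from the apical membrane.

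All values below are normalised log2 signals, that is, log2 of the processed spot signal minus the array's 75th percentile, and all changes are Pck1-CKO minus WT on that scale with the standard error of the limma fit (n = 3 per group). Adjusted p-values come from limma with Benjamini-Hochberg adjustment over all 17135 genes, 2-sided, with a threshold of 0.05. Separate mice per array are not stated in the labels, so the p-values cover the spread between the 6 RNA samples, which may be technical. Each array had between 37116 and 38707 of 56605 probes well above background, and no spot was saturated. Arrays 3 stood apart from arrays 1 and 2 of their own group. The median absolute deviation of the log2 differences was 0.109 between Pck1-CKO 1 and 2 and 0.113 between WT 1 and 2, but 0.140 to 0.184 for the pairs that included an array 3. Pairs of different genotype gave 0.191 to 0.255. WT arrays lay in slide row 1 and Pck1-CKO arrays in row 2, so row and genotype cannot be told apart. Pck1 itself had values of 6.44, 6.60 and 6.90 in the arrays labelled Pck1-CKO, against 6.29, 6.32 and 5.63 in WT (change 0.56 ± 0.22, adjusted p = 0.152). Its 1 probe may lie outside the deleted part and then checks nothing, so directions below are those of the arrays as labelled.

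Of the 10 genes, 2 passed the test: Tsc22d3 rose in Pck1-CKO and Nr3c2 fell. Among all tested genes 8.04% passed, 4.34% in the higher and 3.70% in the lower direction. At an unadjusted p under 0.05, 3 of the 10 were higher and 1 was lower, where 31.2% of all tested genes lay under that p, 17.5% higher and 13.7% lower, so these counts are near the background. The 3 Pck1-CKO values did not overlap the 3 WT values in 4 of the 10 genes, which is near the 38.3% of all tested genes with such a separation. The median change was 0.042 over the 10 genes and 0.0091 over all genes, and the median absolute change was 0.19 over the 10 genes and 0.12 over all genes. With 3 arrays against 3, an exact permutation test of a single gene cannot go below p = 0.1.

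**Figure D1:**
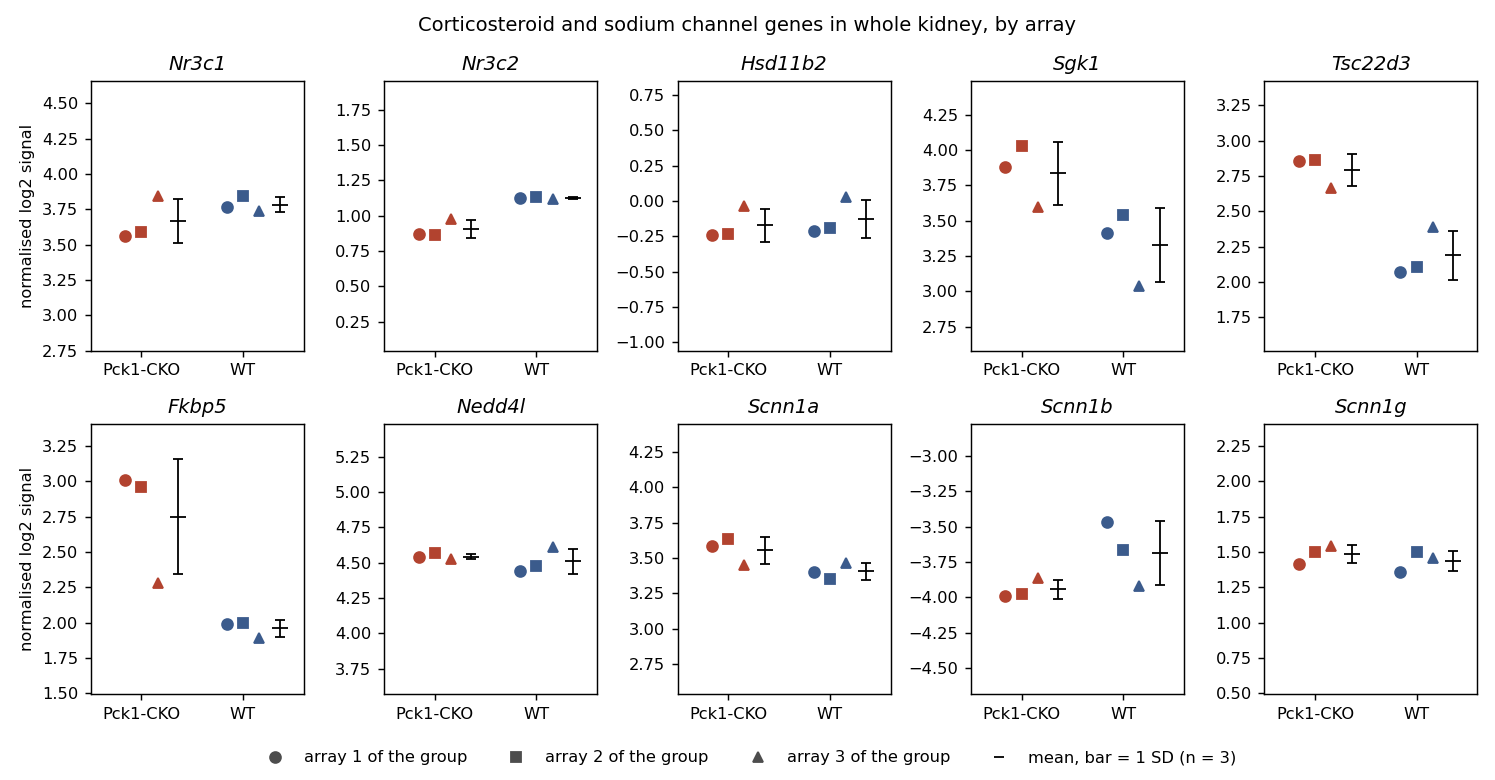
Normalised log2 signal (vertical axis, the same span in every panel) of each of the 10 genes by array, Pck1-CKO left and WT right, with the mean and 1 SD of the 3 arrays beside the points. Tsc22d3, Fkbp5 and Sgk1 have all 3 Pck1-CKO points above all 3 WT points, Nr3c2 has them all below, and the other 6 genes overlap.

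The hormone targets were the genes with the largest changes among the 10. The 3 target genes are shown first by their promoters, since all 3 had every Pck1-CKO value above every WT value. The windows run from 250 bases before to 50 bases after an annotated transcript start, 5′ to 3′ on the gene's strand, and were taken from RefSeq on GRCm38.p6. Windows of 6 of the 10 genes were searched, 13 windows in all. No window of Scnn1a, Hsd11b2, Nr3c1 or Nedd4l was searched, so nothing is said here of their promoters. Capitals mark the motifs searched on both strands: the palindromic hormone response element GNACANNNTGTNC, the half-site AGAACA and the E-box CACGTG, the motif bound by the circadian CLOCK and BMAL1 proteins.
Sgk1, chr10:21993640-21993939, plus strand: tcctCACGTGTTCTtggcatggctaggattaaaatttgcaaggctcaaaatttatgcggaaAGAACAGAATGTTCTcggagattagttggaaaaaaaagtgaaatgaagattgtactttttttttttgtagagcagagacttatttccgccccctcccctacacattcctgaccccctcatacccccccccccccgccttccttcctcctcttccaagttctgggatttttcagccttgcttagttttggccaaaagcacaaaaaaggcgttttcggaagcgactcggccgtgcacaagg
Tsc22d3, chrX:140600473-140600772, minus strand: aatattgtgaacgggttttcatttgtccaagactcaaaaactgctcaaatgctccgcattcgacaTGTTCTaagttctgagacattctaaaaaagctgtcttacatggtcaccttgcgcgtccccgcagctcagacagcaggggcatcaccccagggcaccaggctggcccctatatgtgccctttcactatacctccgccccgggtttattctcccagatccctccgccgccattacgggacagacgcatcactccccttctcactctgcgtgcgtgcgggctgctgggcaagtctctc
Fkbp5, chr17:28486100-28486399, minus strand: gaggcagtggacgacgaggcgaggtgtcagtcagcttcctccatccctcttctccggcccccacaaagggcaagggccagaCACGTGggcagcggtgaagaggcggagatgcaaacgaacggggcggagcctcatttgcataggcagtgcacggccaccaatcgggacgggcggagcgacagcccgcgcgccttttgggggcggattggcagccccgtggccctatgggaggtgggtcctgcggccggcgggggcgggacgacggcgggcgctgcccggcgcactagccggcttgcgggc

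The printed Sgk1 window was the only one of the 13 with the full palindrome, which read GAACAGAATGTTC and began 188 bases upstream of the start. It overlapped half-sites that began 189 and 180 bases upstream, and another half-site at 242 overlapped an E-box at 246. Of the 32851 windows in the table, 0.475% held the palindrome. The Sgk1 gene has 6 annotated windows, of which 3 held a half-site, and the transcripts read by its 1 probe were not looked up. The printed Tsc22d3 window, 1 of 3 for that gene, held a half-site 185 bases upstream, a motif found in 18.97% of all windows. For Sgk1 and Tsc22d3 the printed window is thus 1 that held a motif. The other Tsc22d3 windows held none of the motifs searched, nor did the windows of Nr3c2, Scnn1b and Scnn1g. The Fkbp5 window held an E-box 169 bases upstream, found in 7.15% of all windows, and neither hormone motif. A match of letters is a description of the sequence and shows no binding.

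Tsc22d3 encodes GILZ, a leucine zipper protein induced by glucocorticoids and by aldosterone. Its normalised log2 signal was 2.86, 2.86 and 2.66 in Pck1-CKO, against 2.07, 2.10 and 2.39 in WT. The highest WT value, that of WT 3, stayed below the lowest Pck1-CKO value, that of Pck1-CKO 3. The change was 0.61 ± 0.10, a 1.52-fold higher signal, with adjusted p = 0.0349. A second probe gave 1.45, 1.52 and 1.28 in Pck1-CKO against 0.72, 0.72 and 1.05 in WT, a change of 0.59 ± 0.11. The remaining probe stayed too close to background on all 6 arrays to be tested. The call rested on arrays 1 and 2: the adjusted p was 0.104 without Pck1-CKO 1, 0.127 without Pck1-CKO 2, 0.105 without WT 1 and 0.108 without WT 2, but 0.0339 without Pck1-CKO 3 and 0.0298 without WT 3.

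Fkbp5 encodes FKBP51, a co-chaperone that lowers the hormone affinity of the glucocorticoid receptor and is itself induced by it. Its normalised log2 signal was 3.01, 2.96 and 2.28 in Pck1-CKO, against 1.99, 2.0 and 1.89 in WT. The WT arrays lay close together, whereas Pck1-CKO 3 lay nearer to WT than to the other Pck1-CKO arrays. The change of 0.79 ± 0.20 (1.73-fold) had an adjusted p of 0.0663 and did not pass. In the second Fkbp5 probe, too, Pck1-CKO 3 lay nearest to WT, with 0.56, 0.54 and -0.23 in Pck1-CKO against -0.51, -0.44 and -0.46 in WT. Without Pck1-CKO 3 the change was 1.03 and the adjusted p 0.00724. With any other single array left out Fkbp5 did not pass, with an adjusted p from 0.113 (without WT 3) to 0.193 (without Pck1-CKO 2).

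Sgk1 encodes the kinase that connects aldosterone to the sodium channel. Its normalised log2 signal was 3.88, 4.03 and 3.59 in Pck1-CKO, against 3.41, 3.54 and 3.04 in WT. Array 3 was the lowest of its group in both genotypes, and the lowest Pck1-CKO value lay just above the highest WT value. The change of 0.51 ± 0.17 (1.42-fold, adjusted p = 0.110) did not pass. With both arrays numbered 3 left out, an alternative chosen after seeing the data, the changes were 0.77 for Tsc22d3, 0.99 for Fkbp5 and 0.48 for Sgk1, and all 3 passed (adjusted p = 0.0120, 0.0120 and 0.0416). In that fit 15.9% of all tested genes passed, 8.52% higher and 7.40% lower.

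Among the receptors, Nr3c2, which encodes the mineralocorticoid receptor, fell. Its normalised log2 signal was 0.87, 0.86 and 0.98 in Pck1-CKO, against 1.12, 1.14 and 1.12 in WT. The WT values were nearly equal, and all 3 Pck1-CKO values lay below them. The change was -0.22 ± 0.046, a ratio of 0.857, with adjusted p = 0.0454. Nr3c2 had 3 probes well above background on all arrays, and in each of them the 3 Pck1-CKO values lay below the 3 WT values. The second probe had -1.87, -2.14 and -1.85 in Pck1-CKO against -1.36, -1.49 and -1.56 in WT, a change of -0.49 ± 0.099. The remaining probe changed by -0.28 ± 0.047. In the fit over probes, where 4.29% of 38365 probes passed, this remaining probe passed (adjusted p = 0.0421) and the others did not (0.0557 and 0.0670). Of the 17 tested probes of the 10 genes 2 passed, this one and the brightest Tsc22d3 probe (adjusted p = 0.0449). The call over genes was lost without Pck1-CKO 1 (adjusted p = 0.128), Pck1-CKO 2 (0.164), WT 1 (0.129), WT 2 (0.134) or WT 3 (0.0633), and with the arrays scaled to their median (0.0898).

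Nr3c1, which encodes the glucocorticoid receptor, did not pass. Its normalised log2 signal was 3.56, 3.59 and 3.84 in Pck1-CKO, against 3.77, 3.84 and 3.74 in WT. Pck1-CKO 3 lay at the top of the WT range and the other Pck1-CKO arrays below it. The change was -0.12 ± 0.086 (adjusted p = 0.392), with a 95% confidence interval of -0.33 to 0.095, and -0.09 by a second probe. Hsd11b2, the enzyme that guards the mineralocorticoid receptor, had -0.24, -0.23 and -0.04 in Pck1-CKO against -0.21, -0.19 and 0.03 in WT. Array 3 was the highest in both genotypes, and the groups overlapped. Its change of -0.047 ± 0.092 (adjusted p = 0.763) had an interval of -0.28 to 0.18, and its sign turned with median scaling and without WT 3.

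None of the 3 sodium channel subunits passed the limma test, at the adjusted threshold or at an unadjusted p under 0.05, and the groups overlapped in each of them. Scnn1a, the α subunit, whose transcript aldosterone raises in the kidney, had 3.59, 3.63 and 3.45 in Pck1-CKO against 3.40, 3.35 and 3.47 in WT. Pck1-CKO 1 and 2 lay above the WT range and Pck1-CKO 3 within it. The change was 0.15 ± 0.064 (adjusted p = 0.174), with an interval of -0.0069 to 0.31, and 0.04 by the second probe. With both arrays numbered 3 left out, the change was 0.24 and passed (adjusted p = 0.0468).

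Scnn1b, the β subunit, had -3.99, -3.98 and -3.86 in Pck1-CKO against -3.47, -3.66 and -3.92 in WT. Its 1 probe was well above background on all 6 arrays but dim, with a mean signal above that of only 13.7% of tested genes. The WT values were spread widely and WT 3 lay among the Pck1-CKO values. The change was -0.26 ± 0.12 (adjusted p = 0.202, interval -0.55 to 0.036). It was -0.15 without WT 1, -0.082 with normexp background correction, and -0.42 with both arrays numbered 3 left out (adjusted p = 0.0502). Scnn1g, the γ subunit, had 1.42, 1.5 and 1.54 in Pck1-CKO against 1.36, 1.5 and 1.46 in WT, a change of 0.048 ± 0.058 (adjusted p = 0.601, interval -0.094 to 0.19). Nedd4l, which encodes the ligase NEDD4-2, had 4.54, 4.57 and 4.53 in Pck1-CKO against 4.44, 4.47 and 4.61 in WT. The Pck1-CKO values lay within the WT range, and the change was 0.035 ± 0.055 (adjusted p = 0.693, interval -0.10 to 0.17), with a sign that turned under quantile normalization and with scaling over detected probes only. Its second probe gave 0.13 ± 0.10.

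**Figure D2:**
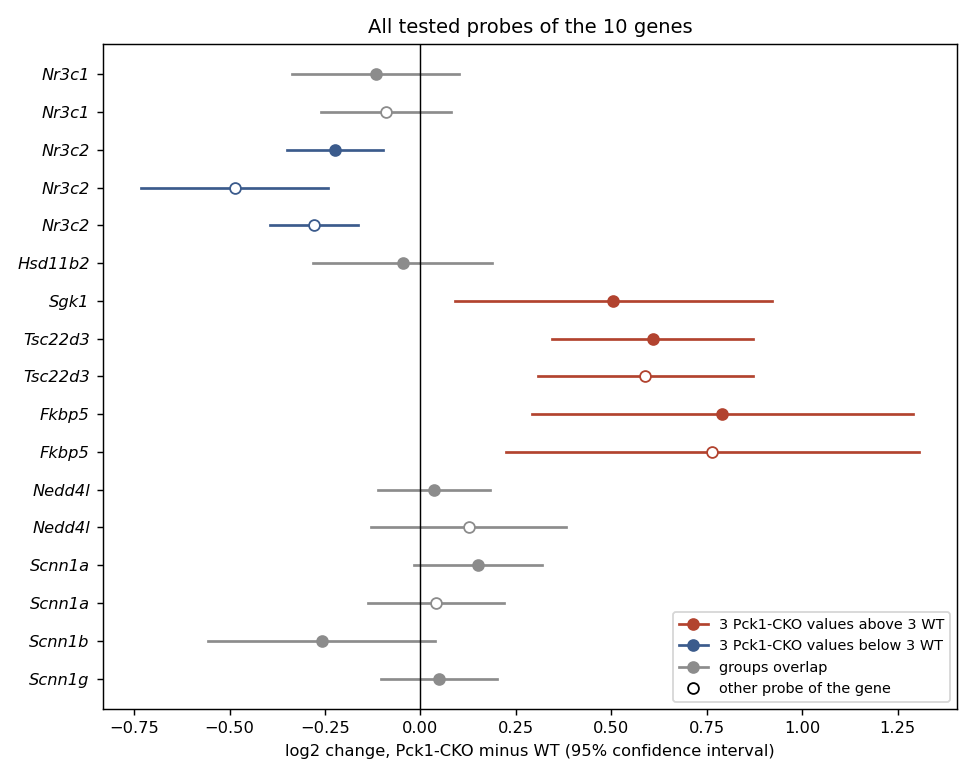
Log2 change, Pck1-CKO minus WT, with its 95% confidence interval (horizontal axis) for the 17 tested probes of the 10 genes, filled for the probe that stood for the gene and open for its other probes. The 3 Nr3c2 probes lie below 0, the 2 Tsc22d3 and the 2 Fkbp5 probes lie between 0.59 and 0.79, and the intervals of all channel subunit and Nedd4l probes include 0.

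The groups were apart in 8 of the 17 tested probes, against 35.0% of all 38365 probes. These 8 belonged to Nr3c2, Sgk1, Tsc22d3 and Fkbp5 and included every tested probe of those genes. They are repeat readings, on the same RNA samples, of the 4 genes of 10 counted above, and do not show an excess over the background. In whole tissue, fewer cells of a type and less RNA per cell cannot be told apart. Markers of the cells that carry the channel were therefore set beside it. Of 13 principal cell genes, 3 of them among the 10, 2 rose: the water channel gene Aqp2 by 0.63 ± 0.073 and the vasopressin receptor gene Avpr2 by 0.56 ± 0.11. The scaled signal summed over the other 10 principal cell genes was 114 to 119 in Pck1-CKO and 101 to 107.1 in WT. Of 10 intercalated cell genes 5 fell, and the sum over the 10 was 49.7 to 50.3 in Pck1-CKO and 64.0 to 68.3 in WT. Over all tested genes 4.34% passed as higher and 3.70% as lower. Of 8 genes of the distal convoluted and connecting tubule 3 fell, with a sum of 419 to 440 in Pck1-CKO and 431 to 459 in WT. The bright genes Klk1 and S100g, with changes of -0.013 and 0.0021, weighed most in that overlapping sum. The mean log2 signal of the 8 genes was apart, 2.67 to 2.71 in Pck1-CKO and 2.94 to 2.99 in WT, and 7 had a negative change. The sums of principal and of intercalated cell genes did not overlap between the groups. Aqp2 and Aqp3 (change 0.28 ± 0.098) made up most of the difference in the principal cell sum. Aqp6 (-0.94 ± 0.043) and Slc4a1 (-0.88 ± 0.061) made up most of that in the intercalated cell sum. The mean log2 signal of the principal cell genes was 2.80 to 2.92 in Pck1-CKO and 2.63 to 2.73 in WT. That of the intercalated cell genes was 1.34 to 1.35 in Pck1-CKO and 1.63 to 1.75 in WT. Single genes went both ways. A negative change was found in 4 of the 13 principal cell genes, among them Krt18 at -0.26 ± 0.060 (adjusted p = 0.0548). The intercalated cell gene Foxi1 had a change of 0.27 ± 0.15 (adjusted p = 0.263). With median scaling 4 principal cell genes passed as higher, beside 2434 of all 17135 genes in that fit. Without Pck1-CKO 1, Pck1-CKO 2, WT 1 or WT 2, 0 genes of the principal cell list and of the distal tubule list passed, and 1 or 2 of the intercalated cell list. In those fits only 23 to 67 of all tested genes passed. The 10 markers of the proximal tubule, the segment to which Cre was directed, were all tested and 0 passed in limma, although 1 lay higher and 1 lay lower at p under 0.05 before adjustment, with sums of 1239 to 1245 in Pck1-CKO and 1218 to 1280 in WT. Of 7 thick ascending limb markers 2 rose, Ppp1r1a and Cldn16 by 0.31 each, and the 7 summed to 602 to 611 in Pck1-CKO and 548 to 575 in WT. Cldn16 did not pass with any single array left out, nor Ppp1r1a without Pck1-CKO 1, Pck1-CKO 2, WT 1 or WT 2. The part of these cell types in the values of the channel subunits and of Nr3c2 was not tested.

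The wider pathway was read from lists of related genes. Of 24 genes of receptor signalling and steroid handling, 1 rose and 2 fell, beside 4.34% and 3.70% of all tested genes. Their median change was 0.055. With median scaling 6 were higher and 2 lower past the threshold, beside 2434 and 560 of all 17135 genes. With the percentile over detected probes 0 were higher and 3 lower, beside 511 and 868 of all genes. Hsp90ab1, a heat shock protein that holds the unliganded receptors, had 7.06, 7.10 and 7.0 in Pck1-CKO against 6.87, 6.83 and 6.81 in WT (0.22 ± 0.044, adjusted p = 0.0434). Abcb1a, which encodes a P-glycoprotein that exports some glucocorticoids, had -2.44, -2.37 and -2.15 in Pck1-CKO against -1.51, -1.52 and -1.42 in WT (-0.84 ± 0.085, adjusted p = 0.0152). Srd5a1, a 5α-reductase of steroids, changed by -0.76 ± 0.16 (adjusted p = 0.0449), with 1.87, 1.87 and 2.29 in Pck1-CKO against 2.60, 2.73 and 2.99 in WT. In all 3 of these genes the groups were apart, but they were picked by a test on the same values. Over the list the groups were apart in 15 of the 24 genes, and over all tested genes in 38.3%. None of these 3 genes passed without Pck1-CKO 1, Pck1-CKO 2, WT 1 or WT 2. Without Pck1-CKO 3 the list had 2 genes higher and 3 lower past the threshold, beside 739 and 830 of all 16960 genes. Hsp90ab1 and Srd5a1 also did not pass without WT 3.

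Of 25 tested genes listed as induced by glucocorticoids, 0 passed as higher and 2 passed as lower in limma, with a median change of 0.12. With median scaling 2 passed as higher and 3 as lower, beside 2434 and 560 of all 17135 genes. With normexp 3 passed as higher and 3 as lower, beside 1005 and 908 of all genes. At an unadjusted p under 0.05, 5 were higher and 4 lower, near the 31.2% of all genes at that p. The 2 that fell were the metallothionein genes Mt1 and Mt2, which bind zinc and copper. Mt1 had 6.64, 6.64 and 6.75 in Pck1-CKO against 7.16, 7.17 and 7.20 in WT (-0.50 ± 0.047, adjusted p = 0.0149), and Mt2 changed by -0.50 ± 0.077 (adjusted p = 0.0294). Their direction was thus opposite to that of Tsc22d3. Neither passed without Pck1-CKO 1, Pck1-CKO 2, WT 1 or WT 2. Over the 25 genes 14 changes were positive and 11 negative. Ddit4 (0.46 ± 0.12), Nfkbia (0.18 ± 0.065) and Sesn1 (-0.21 ± 0.061) were among those at an unadjusted p under 0.05 in limma. Klf9 (-0.022 ± 0.043), Dusp1 (-0.031 ± 0.20) and Pdk4 (-0.099 ± 0.20) had small changes. These genes and the following ones were singled out after their values were seen. Hif3a, a hypoxia-inducible factor subunit, had -2.84, -2.80 and -3.85 in Pck1-CKO against -4.45, -4.23 and -3.94 in WT (1.04 ± 0.31, adjusted p = 0.0915). Cdkn1a, the cell cycle inhibitor p21, had -0.38, -0.62 and -1.41 in Pck1-CKO against -1.50, -1.65 and -2.08 in WT (0.94 ± 0.30, adjusted p = 0.1005). Cebpd, a transcription factor gene, changed by 0.63 ± 0.15 (adjusted p = 0.0553) and Irs2, an insulin receptor substrate, by -0.67 ± 0.16 (adjusted p = 0.0552). In Hif3a, Cdkn1a and Cebpd, as in Fkbp5, Pck1-CKO 3 lay nearer to WT than Pck1-CKO 1 and 2 did. Without Pck1-CKO 3, 4 of the 25 genes passed as higher and 3 as lower, beside 739 and 830 of all 16960 genes in that fit. Without WT 3 the counts were 3 and 3, beside 850 and 628 of all 16981 genes. With both arrays numbered 3 left out, 10 of the 25 genes passed as higher and 5 as lower, beside 8.52% higher and 7.40% lower over all genes in that fit.

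Of 30 regulators of the sodium channel and of transport in the aldosterone-sensitive nephron, 0 passed as higher and 1 as lower in limma, and their median change was -0.01. With median scaling 5 passed as higher and 1 as lower, beside 2434 higher and 560 lower of all 17135 genes in that fit. Before adjustment, p was under 0.05 for 5 in the higher and 2 in the lower direction, no more than the background of 31.2% of all genes. The gene that fell was Slc12a3, which encodes the thiazide-sensitive sodium chloride cotransporter of the distal convoluted tubule. It had 2.76, 2.79 and 2.85 in Pck1-CKO against 3.25, 3.21 and 3.23 in WT (-0.43 ± 0.042, adjusted p = 0.0152), a ratio of 0.742. Other genes of that segment and of the connecting tubule also fell, with changes of -0.66 ± 0.071 for Slc8a1, a sodium-calcium exchanger, and -0.32 ± 0.059 for Trpv5, a calcium channel. Slc12a3, Slc8a1 and Trpv5 did not pass without Pck1-CKO 1, Pck1-CKO 2, WT 1 or WT 2. Trpv5 did not pass without Pck1-CKO 3 either, where 1 regulator of the list and 739 of all 16960 genes passed as higher.

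**Figure D3:**
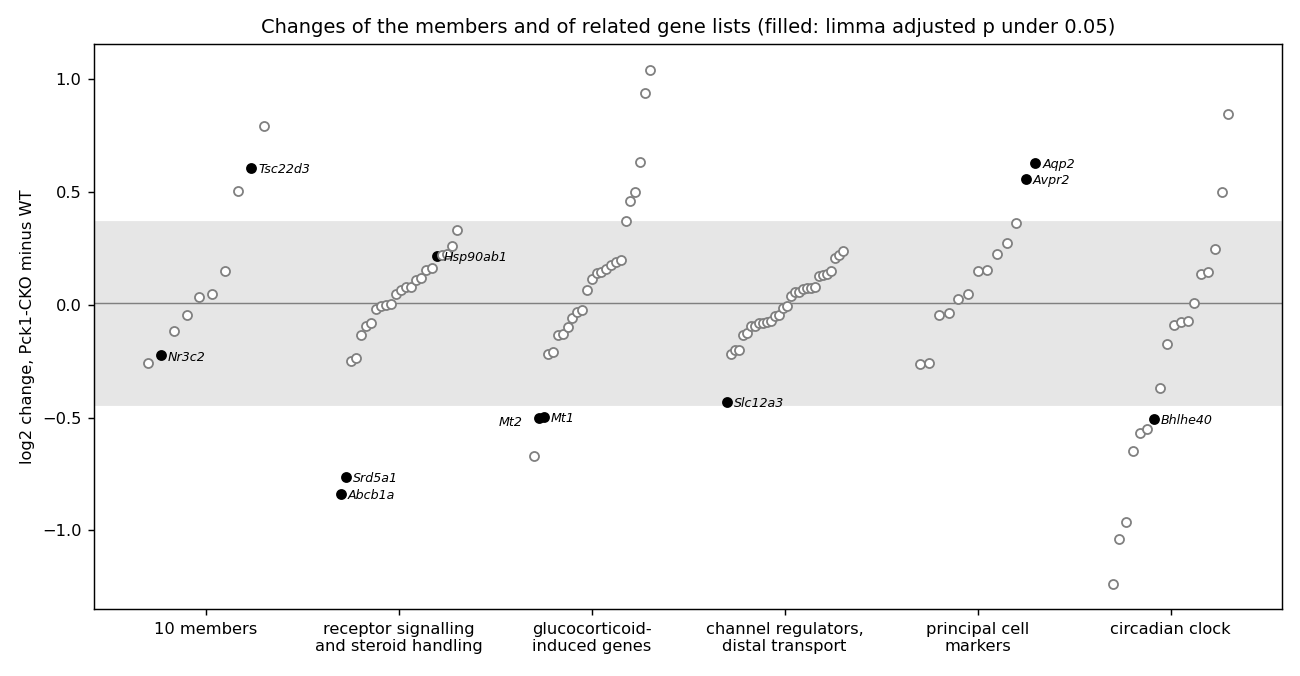
Log2 change, Pck1-CKO minus WT (vertical axis), of each tested gene of the 10, of 3 related lists, of principal cell markers and of circadian clock genes, in order of size within a list, filled where the limma adjusted p was under 0.05. The grey band spans the 5th to 95th percentile of all tested genes. Most list genes lie inside the band, and the filled points include both directions.

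Other tissues that could bring corticosteroid signals were also measured. Adrenal markers were low: Cyp11a1, Cyp11b1, Cyp11b2, Dbh and Chga were not well above background on any array, and the other 7 of 12 summed to 1.03 to 1.12 in Pck1-CKO and 1.11 to 1.17 in WT. Adipose markers were higher in Pck1-CKO, with 7 of 14 past the threshold, beside 4.34% of all tested genes in that direction. Their summed scaled signal was 136 to 195 in Pck1-CKO and 32.8 to 53.6 in WT. The adipose genes past the threshold numbered 0 without Pck1-CKO 1, Pck1-CKO 2 or WT 2, 3 without WT 1 and 4 without Pck1-CKO 3. Over all genes 39 of 17062 passed as higher without WT 1 and 739 of 16960 without Pck1-CKO 3. The 10 leukocyte markers summed to 46.8 to 51.9 in Pck1-CKO and 55.6 to 59.6 in WT, and the 6 endothelial markers to 47.5 to 52.9 in Pck1-CKO and 52.4 to 54.0 in WT. The part of adipose tissue in the higher values of the hormone targets was not tested.

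Glucocorticoids follow a daily rhythm, so 18 circadian clock genes were added after the values of the targets had been seen. Whether their order across arrays was related to that of the targets was not tested. The targets differed in WT 3, which had the highest WT value of Tsc22d3 and the lowest of Fkbp5 and Sgk1. Dbp, an output gene of the clock, had 4.05, 4.09 and 4.90 in Pck1-CKO against 5.11, 5.14 and 5.91 in WT (-1.04 ± 0.32, adjusted p = 0.0962). Nr1d1, which encodes the repressor REV-ERBα, had 0.05, 0.06 and 0.61 in Pck1-CKO against 0.73, 0.69 and 1.24 in WT (-0.65 ± 0.22, adjusted p = 0.110). Arntl, which encodes the activator BMAL1, had -0.78, -0.70 and -1.17 in Pck1-CKO against -1.25, -1.46 and -2.49 in WT (0.85 ± 0.34, adjusted p = 0.1599). In Dbp and Nr1d1 the lowest values were those of Pck1-CKO 1 and 2, the highest that of WT 3, and Pck1-CKO 3 lay just below WT 1 and 2; Arntl ran the other way. Per1, a clock gene that glucocorticoids also induce, had 2.68, 2.73 and 2.32 in Pck1-CKO against 1.81, 1.90 and 2.51 in WT (0.50 ± 0.22, adjusted p = 0.180).

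Of the 18 clock genes 1 passed in limma, Bhlhe40, with 0.44, 0.48 and 0.55 in Pck1-CKO against 0.95, 1.01 and 1.01 in WT (-0.51 ± 0.047, adjusted p = 0.0149). Before adjustment, p was under 0.05 for 1 in the higher and 7 in the lower direction, beside 17.5% higher and 13.7% lower over all genes. Bhlhe40, a repressor within the clock, did not pass without Pck1-CKO 1, Pck1-CKO 2, WT 1 or WT 2. With both arrays numbered 3 left out, 2 clock genes passed as higher and 7 as lower, beside the same 8.52% and 7.40% over all genes. The labels give no hour of sampling, and the part of the clock in the higher values of Tsc22d3, Fkbp5 and Sgk1 was not tested.

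**Figure D4:**
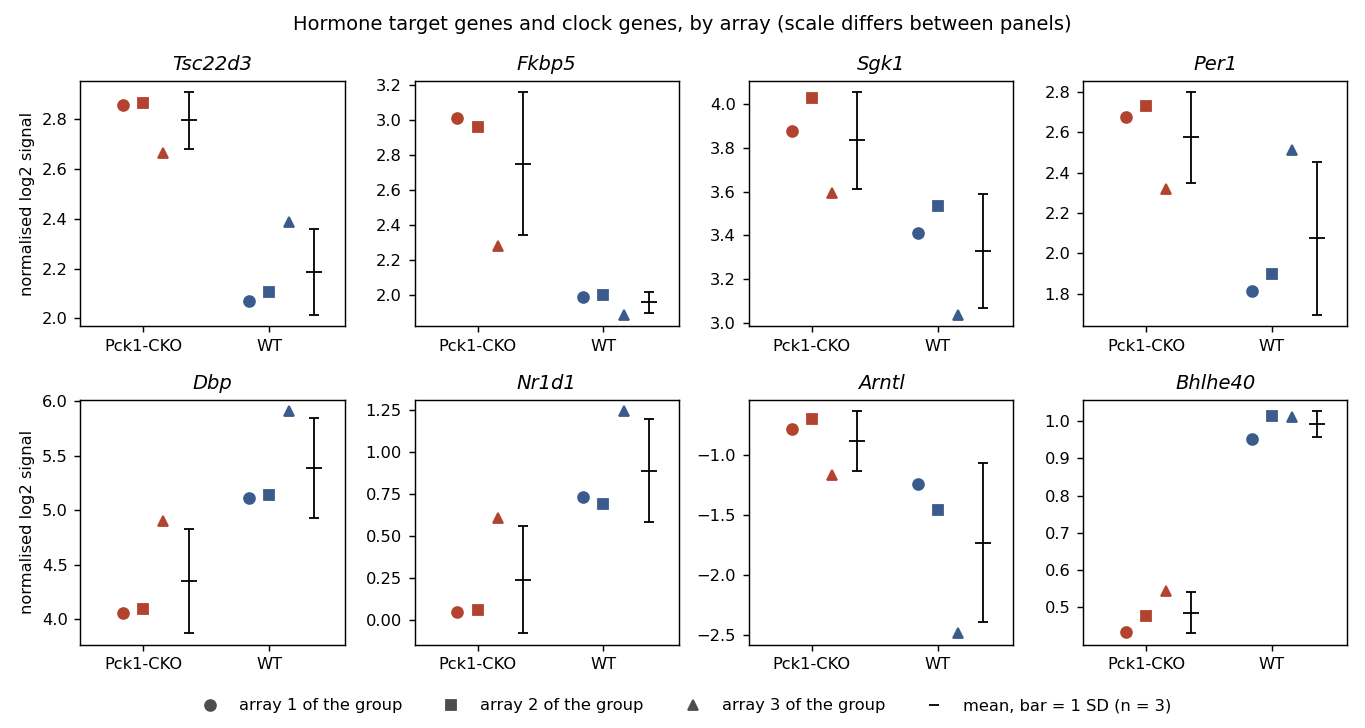
Normalised log2 signal (vertical axis, span differs between panels) of 3 hormone targets, Per1 and 4 further clock genes by array, Pck1-CKO left and WT right, with the mean and 1 SD of the 3 arrays. Dbp and Nr1d1 are lowest in Pck1-CKO 1 and 2 and highest in WT 3, Arntl shows the opposite order, and Fkbp5 is highest in Pck1-CKO 1 and 2.

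The genes whose values over the 6 arrays were most like those of Tsc22d3, after each gene was centred on its own mean, were Slc6a9, Nlrc4, Ankrd6, Tyw3 and Afmid. Their root mean square differences from Tsc22d3 were 0.031, 0.045, 0.047, 0.049 and 0.052 on the log2 scale. Slc6a9, a glycine transporter gene, had 3.60, 3.59 and 3.42 in Pck1-CKO against 2.88, 2.85 and 3.09 in WT. Among the other members the nearest was Fkbp5 at 0.24, followed by Scnn1a at 0.24 and Sgk1 at 0.26, and the farthest was Scnn1b at 0.50. This measure depends on the size of a gene's changes as well as on their order. Nedd4l and Scnn1g, which hardly changed, lay at 0.30 and 0.31, so these distances do not show a shared profile.

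**Figure D5:**
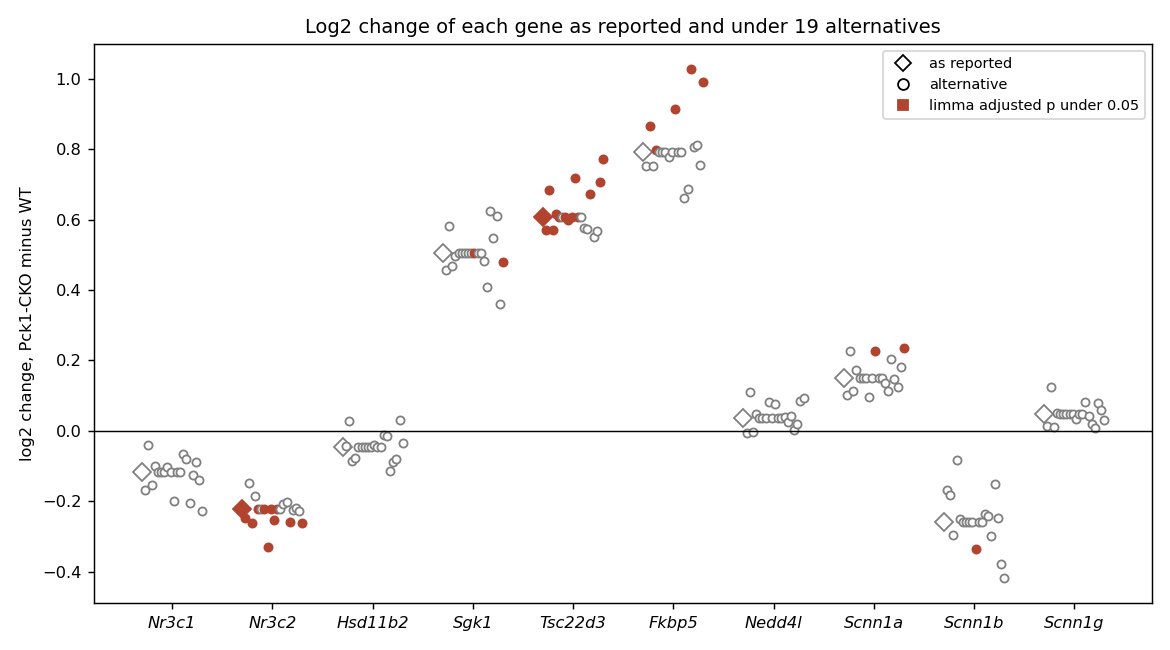
Log2 change, Pck1-CKO minus WT (vertical axis), of each of the 10 genes as reported (diamond) and under 19 other settings of the processing (circles), filled where the limma adjusted p was under 0.05. Tsc22d3, Fkbp5 and Sgk1 stay above 0 and Nr3c2 below 0 under all 19, whereas Hsd11b2 and Nedd4l cross 0 under 2 settings each.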

How the data were processed

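Whole kidney RNA of 3 Pck1-CKO and 3 WT samples was measured on 1-colour Agilent arrays, 1 array per sample. The deposited scanner files hold intensity values on a linear scale, made with Agilent Feature Extraction 10.7.1.1 per the submitters' processing notes, and per the file headers the processed signal was already background-subtracted. The authors' deposited series matrix gives a ratio on a linear scale. On each array it matched the processed signal over a single factor to within 0.1% for at least 99.83% of 13881 single-spot probes. Its column medians were 0.099, 0.097 and 0.098 for Pck1-CKO and 0.104, 0.103 and 0.102 for WT, so its scale and direction were settled and it served as an alternative.

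Spots that the scanner software marked as non-uniform or as population outliers (46 to 94 per array) were left out. The log2 of the processed signal was averaged over the spots of a probe, and the 75th percentile of the array's non-control probes was then subtracted (528.9 to 583.1 in linear units). A probe was kept if 3 or more of the 6 arrays had it well above background, which left 38365. Unversioned RefSeq accessions gave 1 symbol to 34675 of 56605 probes, for 23785 symbols, using RefSeq's gene table for GRCm38.p6. The array design uses another build, so coordinates are given for the RefSeq promoter windows only. The brightest probe with values on all arrays stood for a gene. Genes were fitted in limma 3.58.1 (R 4.3.3; lmFit, then eBayes) without covariates, and probes in a fit of their own. The number of arrays limits the precision. The procedure was tested on simulated data.

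The members, the lists and the naming rule were chosen with earlier results of these data known. Named were all 10 members with their probes, Pck1, up to 4 genes of each list past the threshold with the lowest p (otherwise the 1 with the lowest p), marker genes, and the 5 genes most like the member with the lowest p. The clock list, further glucocorticoid-induced genes and the fit without both arrays numbered 3 were chosen after seeing the data. The listed name Ctgf is an older name of Ccn2, which was counted once. Sample numbers equal slide columns. Deviations from the group means correlated at 0.146, -0.045 and 0.00069 between samples of the same number, so the numbers were not used as pairs. Alternatives covered normalization, background correction (normexp, offset 50, on the median signals the files hold), the series matrix, the filter, the choice of probe, the variance model, array weights, flags, a replicate block and left-out arrays. No slide or scan block could be used, because there was only slide 1.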

Additional observations from a re-analysis of the deposited data

How the results depend on the processing

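As reported, 1377 genes, 2 of the 10 members and 2 of their probes passed. The direction of Tsc22d3, Fkbp5, Sgk1, Nr3c2, Nr3c1 and the 3 channel subunits was the same under all 19 alternatives. Tsc22d3 passed in 13 of them (adjusted p 0.0045 to 0.127), Nr3c2 in 10 (0.0076 to 0.164), Fkbp5 in 5 (0.0072 to 0.193), Sgk1 and Scnn1a in 2 each and Scnn1b in 1. Leaving out 1 array gave 23 to 1569 genes, 0 to 3 members and 0 to 3 probes. The genes numbered 23 without Pck1-CKO 1, 26 without Pck1-CKO 2, 67 without WT 1 and 44 without WT 2, with 0 members each, and 1 member (Tsc22d3) passed without WT 3. Without both arrays numbered 3, chosen after seeing the data, 2666 genes, 5 members and 5 probes passed. With the replicate block 4 genes, 0 members and 0 probes passed (adjusted p = 0.103 for Tsc22d3, 0.102 for Nr3c2), and without a filter on dim probes 142, 0 and 0. Median scaling gave 2994 genes, array weights 5900 genes with 6 members and 8 probes, and eBayes with trend and robust 2831 genes with 4 probes. The probes past the threshold numbered 1 with quantile normalization, 5 with normexp and 4 with the filter on all 6 arrays. Fkbp5 passed and Nr3c2 did not with normexp and with median scaling. The share of higher genes among those called was 54% as reported, 81.3% with median scaling and 37.1% with the percentile taken over detected probes, so the direction of small changes depends on the scaling. Nedd4l changed by -0.0072 with quantile normalization and -0.0028 with that percentile, and Hsd11b2 by 0.029 with median scaling and -0.11 to 0.031 when 1 array was left out, where only the exclusion of WT 3 turned its sign. The cause of these differences was not tested.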
